A study of Arabidopsis thaliana with 12 samples.

Results

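In leaves of Arabidopsis thaliana, 249 of 22746 probe sets (1.09%) were high in untreated wild type and lower, at nearly 1 common level, in des1-1 mutant leaves, in wild type leaves given sodium sulfide and in leaves with both changes. The members were chosen by their group means on the log2 scale: the mean of untreated wild type had to lie at least 1 above the mean of each other group, and the 3 other means had to lie within 0.5 of each other. All 12 arrays therefore entered the choice, so differences between groups given here for members, and counts of members called, are descriptions and support nothing as tests. The distance from untreated wild type down to the highest of the 3 other means is called the gap.

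The series holds 4 groups of 3 arrays, all from leaves of 30-day-old plants of the Col-0 background. The wild type and the des1-1 insertion line were grown in soil under long days for 20 days and then received plain water or Na2S over 10 days. The dose is labelled 200 mM, which is high for plants and could not be checked here. The untreated groups had water only, so sulfide, sodium and other properties of the solution cannot be told apart. All mutant plants carry the same insertion allele; other alleles and complemented plants are not analysed here.

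DES1 is a cytosolic enzyme that splits L-cysteine into sulfide, ammonia and pyruvate. Sulfide is a toxic molecule at high level and a signal at low level, and it can modify cysteine residues of proteins. Plants without DES1 are known for early leaf ageing.

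A probe set is a group of short probes on an Affymetrix ATH1 array that together read a transcript. Of the 249 members, 123 were paired with exactly 1 gene, 5 with several genes and 121 with no gene in the annotation used here. One of the 121 had the second largest gap, 5.86, with 10.88, 10.88 and 10.86 in untreated wild type and 5.13 or lower on the 9 other arrays. The 123 pairings named 123 different loci, and only 20 of these have a symbol beyond the locus name. AT1G21830 had another probe set that did not follow the pattern (gap 0.09), and no other named member had another probe set listed for it alone.

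The leaf identity of the material was checked with the 2 genes, of 4 listed for leaf mesophyll, that had a probe set paired with them alone. These were RCA, the activase of Rubisco, and LHCB4.1, a light-harvesting protein of photosystem II. RCA had group means of 14.21 in untreated wild type, 14.54 in untreated des1, 14.38 in wild type given Na2S and 14.43 in des1 given Na2S, and LHCB4.1 had 13.99, 13.35, 13.84 and 13.80 in the same order, which is kept below. Both lay near the top of the scale in every group, though LHCB4.1 passed the limma test as lower and RCA as higher in untreated des1. DES1 transcript itself is not analysed here. In whole leaves, fewer cells of a type and less RNA per cell cannot be told apart.

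AT1G56300 encodes a J-domain protein, a class of co-chaperones that act with heat shock protein 70, and it had the largest gap. Its log2 values were 9.32, 9.50 and 9.50 on the untreated wild type arrays. They were 3.51, 3.65 and 3.55 in untreated des1, 3.50, 3.52 and 3.32 in treated wild type, and 3.46, 3.40 and 3.42 in treated des1. The gap was 5.87, and the 3 low means (3.57, 3.45 and 3.43) lay within 0.14 of each other. All 3 lay below the lower quartile of every array in their group, a range in which array values are compressed. On the array scale the gap equals a 58.5-fold step.

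Many gaps were small and a few were very large. The median gap was 1.42, a 2.68-fold step, and 143 members had gaps under 1.5. Gaps of at least 2 were seen for 51 members, of at least 3 for 17 and of at least 4 for 6. The members ranged from dim to very bright in untreated wild type, with group means from 4.74 to 13.18 and a median of 7.56, against 5.79 over all probe sets tested. In the 3 other groups the median over members was 5.67 in untreated des1, 5.80 in treated wild type and 5.78 in treated des1, against 5.76, 5.73 and 5.72 over all probe sets. For 117 members all 3 low means lay below the median of each array in the group, and for 15 all 3 lay below the lower quartile.

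**Figure D1:**
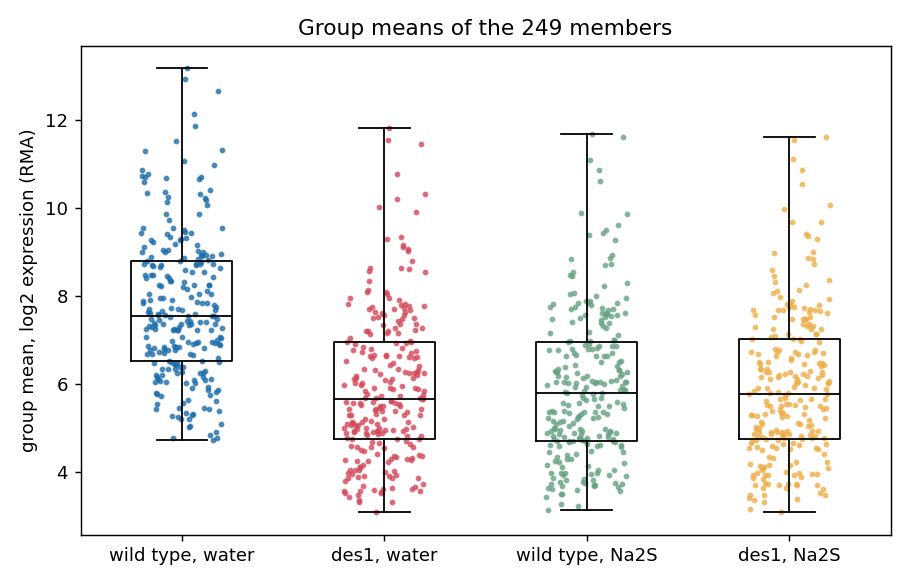
Group means of the 249 members in the 4 groups, in log2 units on the vertical axis; each point is a probe set, boxes show quartiles and median, and whiskers reach the lowest and highest member. The median is 7.56 in untreated wild type and between 5.67 and 5.80 in the 3 other groups.

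The large gaps belonged to genes of varied function. AT4G30660, a member of a family of small membrane proteins responsive to low temperature and salt, read 10.95, 10.31 and 10.90 in untreated wild type, and its 9 other values ran from 5.74 to 6.06. AT5G62360, of the pectin methylesterase inhibitor family, read 8.65, 9.30 and 9.09 there and 4.47 or lower on the 9 other arrays. Both had gaps of 4.73. The lowest untreated wild type array lay 4.25 above the highest other array for the first of these genes and 4.18 above it for the second.

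AT2G39920, which encodes a protein of the acid phosphatase class of the HAD superfamily, averaged 7.84 ± 0.372 (SD, n = 3, as for the means that follow) in untreated wild type and 3.52 ± 0.20, 3.15 ± 0.223 and 3.16 ± 0.0493 in des1 with water, wild type with Na2S and des1 with Na2S. AT4G16146, related to cAMP-regulated phosphoproteins, averaged 7.90 ± 0.285 against 3.81 ± 0.179, 3.64 ± 0.191 and 3.49 ± 0.201 in the same order. AT2G39920 was one of 3 named genes, with AT1G56300 and PYK10, whose 3 low means all lay below the lower quartile.

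Genes of starch and sugar metabolism were among the members with large gaps. DPE1, the plastid disproportionating enzyme that rearranges maltotriose during starch breakdown, read 8.54, 8.68 and 8.25 in untreated wild type. Its values were 5.02, 4.63 and 4.68 in untreated des1, 4.41, 4.89 and 4.54 in treated wild type, and 4.69, 4.90 and 4.58 in treated des1. The groups other than untreated wild type overlapped array by array, and the gap of 3.71 equals a 13.1-fold step. AT1G70820, of the phosphoglucomutase family, had a mean of 10.70 ± 0.0802 in untreated wild type and means of 6.97, 7.16 and 7.02 in the others. AT3G47800, a galactose mutarotase-like protein, stood at 8.47 ± 0.257 against 6.14, 6.20 and 6.16, with the 3 low means within 0.06 of each other. AT5G39790, which encodes PTST, a protein that brings granule-bound starch synthase to the starch granule, had a gap of 1.94 and was chosen for mention after its values were seen.

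The other measured gene of the starch list, PWD, a kinase that phosphorylates starch granules for their breakdown, is not a member. It passed the limma test in each comparison with untreated wild type, with differences of -0.90 ± 0.102 (SE) in untreated des1, -1.35 ± 0.102 in treated wild type and -1.63 ± 0.102 in treated des1 (limma adjusted p = 7.19e-07, 7.31e-09 and 6.89e-10). Both measured genes of 20 listed were called lower in each of the 3 groups, where 22.6%, 15.4% and 16.1% of all probe sets were called lower. The rule all but fixes the calls of DPE1, which leaves PWD alone, so nothing is read from this count.

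The beta-glucosidase (BGLU) family, enzymes that release glucose from stored or signalling compounds, had 4 members, and their levels differed widely. BGLU44 read 10.61, 10.55 and 10.60 in untreated wild type and between 6.50 and 6.92 on the 9 other arrays, with a gap of 3.80. PYK10, the beta-glucosidase of endoplasmic reticulum bodies, abundant in roots and seedlings, read 6.60, 6.49 and 6.99 in untreated wild type against means of 3.45, 3.61 and 3.37, all below the lower quartile. BGLU16 (8.25 ± 0.0808 against 6.94, 6.88 and 6.99) and BGLU42 (7.55 ± 0.0611 against 6.28, 6.32 and 6.49) had gaps of 1.27 and 1.05. They are 4 of 22 probe sets paired with a BGLU gene, and the family was picked after the values were seen. Over the family, 7 of the 22 passed the limma test as lower and 3 as higher in untreated des1, and 4 as lower and 3 as higher in treated wild type. Of all 22746 probe sets, 22.6% were called lower and 5015 higher in untreated des1, and 15.4% lower and 3409 higher in treated wild type. With the members among the 22, nothing is read from the family's counts. BGLU40 ran the other way, at 8.36 in untreated wild type and 9.22, 9.91 and 9.80 in the 3 other groups. BGLU43, of the same family, was dim in every group, at 3.46, 3.18, 3.22 and 3.12.

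IAA29, a repressor of auxin response, read 6.73, 6.93 and 6.84 in untreated wild type and between 4.28 and 4.97 on the 9 other arrays (gap 2.23). CML38, a calmodulin-like protein, had means of 6.48 ± 0.26 against 4.25, 4.23 and 4.06, with the same gap of 2.23. COR15B, a cold-regulated protein of the chloroplast stroma, read 7.21, 7.22 and 7.36 against 5.35 or lower elsewhere (gap 2.19). The values of untreated wild type lay above all others for each of the 3 genes, as for every member and for 11.5% of all probe sets.

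The remaining named genes had gaps between 2.11 and 3.12. AT1G22570, of the peptide and nitrate transporter family, averaged 8.42 ± 0.177 in untreated wild type against 5.30, 4.95 and 4.87 (gap 3.12). AT4G01130, a GDSL-type lipase, averaged 6.88 ± 0.144 against 4.05, 3.88 and 3.72. AT4G26370, whose protein has the NusB domain known from bacterial antitermination, averaged 8.47 ± 0.347 against 5.58, 6.04 and 5.93. AT4G14230, with a CBS domain, had a gap of 2.54, AT4G29610, of the cytidine deaminase family, one of 2.53, and AT1G75960, of the AMP-dependent synthetase family, one of 2.11. AT1G64890, of the major facilitator superfamily, had a gap of 2.25 and a wide spread in treated wild type (4.32, 5.07 and 5.25).

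For the last genes fixed by the naming rule no role is given. AT4G17470 had a gap of 2.62, AT3G56720 of 2.57, AT3G10020 of 2.50, AT5G62280 of 2.39 and AT1G75190 of 2.20. AT5G62280 had the widest spread of the named genes in untreated wild type, with 7.87, 6.87 and 7.71. Over the 25 named genes, the lowest untreated wild type array lay at least 1.46 above the highest array of any other group.

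**Figure D2:**
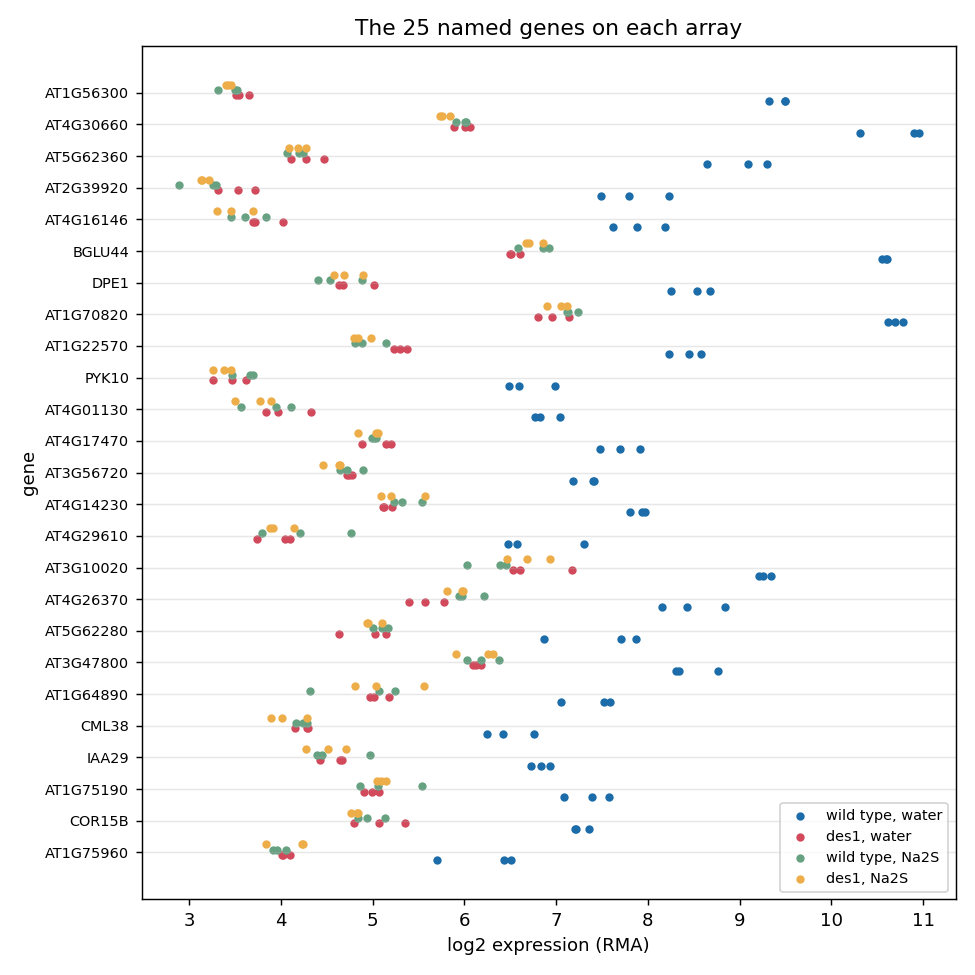
Log2 expression of the 25 named genes on each of the 12 arrays, with genes ordered by gap and colours giving the 4 groups. The 3 points of untreated wild type lie to the right of the 9 others in each row, from AT1G56300 (gap 5.87) to AT1G75960 (gap 2.11).

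Members with smaller gaps included several genes of the chloroplast's own gene expression, picked after their values were seen. AT4G30690, of the bacterial-type translation initiation factor 3 family, read 9.77, 9.86 and 9.97 in untreated wild type and between 7.98 and 8.17 on the other arrays (gap 1.73). MRL7-L, which is needed for plastid transcription, had a gap of 1.25, and OTP81, an RNA editing factor, one of 1.09. AT5G24490, of the plastid ribosomal protein family, averaged 11.87 ± 0.0252 against 10.21, 10.61 and 10.55. The brightest member of all was AT1G13930, at 13.18 ± 0.0529 against 11.81, 11.69 and 11.55.

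Small secreted proteins, receptors and regulators were present as well, again picked after the values were seen. The defensin-like genes AT2G43550 (10.36 ± 0.0862 against 8.10, 8.49 and 8.59) and AT2G43535 (7.37 ± 0.421 against 5.21, 5.53 and 5.51) lie close together in the gene order. The leucine-rich repeat genes AT1G33590 (gap 1.71) and AT1G33600 (gap 1.25) are direct neighbours, as are AT5G10780 (gap 1.00) and the ubiquitin protease gene UBP22 (gap 1.03). The thionin gene THI2.2, whose gap was 1.11, lies 3 genes from BGLU42. These positions are a description, and whether members lie close together more often than other genes was not tested. Among regulators, the MYB-related gene AT5G08520 had a gap of 1.61 and the B-box gene AT2G47890 one of 1.56.

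The genes with a symbol or a known family include further members with small gaps, also picked after their values were seen. The leucine-rich repeat kinase gene AT3G46370 read 6.88, 7.08 and 6.61 in untreated wild type and 5.60 or lower elsewhere (gap 1.80), and AT1G53440, of the same class, had a gap of 1.42. SERPIN1, a protease inhibitor, read 9.01, 9.06 and 8.93 in untreated wild type and 7.90 or lower elsewhere. GLR3.5, a glutamate receptor-like channel, read 6.35, 6.76 and 6.35 against 5.18 or lower elsewhere. WLIM1, which bundles actin filaments, averaged 9.45 ± 0.146 against 8.06, 7.88 and 7.90. UGT80B1, which adds glucose to sterols, averaged 7.44 ± 0.155 against 6.06, 6.07 and 5.93.

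The wall genes EXPA9, an expansin, and AT1G71695, a class III peroxidase, had gaps of 1.16 and 1.14. EXPA9 was 1 of 10 measured expansin A genes to meet the rule; 4 of the 10 were called lower in untreated des1, and in treated wild type 2 were called lower and 2 higher. IAA29 was 1 of 7 measured IAA genes to meet it, and CML38 was 1 of 8 CML genes. The jacalin-related lectin gene JAL22 (gap 1.11) was 1 of 4 JAL genes, of which 2 were called lower in untreated des1 and 4 in treated wild type. The shares of all probe sets called lower were 22.6% and 15.4%, and with so few genes, members among them, nothing is read from these family counts. The 3 other groups were closest together for AT1G53035, whose means of 4.12, 4.12 and 4.11 lay within 0.01 of each other, against 6.16 ± 0.11 in untreated wild type.

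Of 164 entries in gene lists for clock, light, chlorophyll, starch, cold, heat and auxin themes and for cell types, 29 had a probe set paired with them alone, and 3 of these (DPE1, COR15B and IAA29) were members. The 5 measured chlorophyll synthesis genes of 23 were all lower in untreated des1 and passed the test, with a median difference of -1.21 against 0.01 over all probe sets. In treated wild type 3 of them passed as lower (median -0.60, against 0.03 over all), and in treated des1 4 did (median -0.64). The shares of all probe sets called lower in these 3 groups were 22.6%, 15.4% and 16.1%. With 5 of 23 genes measured, nothing is read from the chlorophyll counts. CHLI2, a subunit of magnesium chelatase and 1 of the 5, stood at 10.07 in untreated wild type and at 7.99, 8.65 and 8.81 elsewhere. Its 3 low means spread by 0.82, so it missed the rule.

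Of 4 measured cold genes, 1 fell and 2 rose in untreated des1, and all 4 fell in treated wild type and in treated des1. COR15B was the member. COR15A (9.31, 8.92, 8.34 and 7.97, gap 0.39) was not, and it was not called in untreated des1 (limma adjusted p = 0.0697). COR47 (9.87, 10.62, 9.30 and 9.38) and LTI30 (6.69, 7.23, 5.01 and 5.80) were above untreated wild type in untreated des1 and below it under Na2S. Of 3 measured auxin-linked genes, IAA29 and the expansin gene EXPA8 were lower in untreated des1, and all 3 were lower in treated wild type and treated des1. The shares of all probe sets called lower were again 22.6%, 15.4% and 16.1%, and nothing is read from the counts of these cold and auxin-linked genes. EXPA8, with 10.97, 7.79, 8.66 and 8.57, missed the rule because its 3 low means spread by 0.87.

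Of the clock lists, 0 of 8 morning genes, 1 of 12 evening genes and 3 of 9 output genes were measured, that is, had a probe set paired with them alone. The others could not be read here, and 8730 of all 22746 probe sets had no gene in the annotation used. GI, a clock component of the evening, stood at 7.65, 6.64, 6.04 and 5.91, and the clock output gene CCL at 12.23, 10.58, 8.33 and 8.20, in the order of groups used above. Both passed the test as lower in each comparison with untreated wild type, while COR27 and COR28 did not pass in any (limma adjusted p from 0.0826 to 0.807) and were dim in every group. HYH, a light-signalling factor and the 1 measured gene of its list, passed as higher in all 3 groups (5.44 in untreated wild type, then 8.99, 9.15 and 9.14). The 1 measured heat shock gene, a dim one, did not pass in any. Of all 22746 probe sets, 22.6%, 15.4% and 16.1% were called lower in the 3 groups, and 5015, 3409 and 3229 were called higher. With so few genes measured, nothing is read from the clock, light and heat calls. The labels give no hour of harvest, so whether the groups were sampled at the same time of day was not tested.

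Some markers of other cell types moved between the same groups. The dividing-cell genes AUR1 and PRL, 2 measured of 8, were lower in untreated des1 and treated des1, with AUR1 at 6.87, 5.04, 6.54 and 6.26 and PRL at 7.26, 5.15, 6.28 and 6.08. In treated wild type PRL passed as lower and AUR1 did not (limma adjusted p = 0.0829). The trichome gene TRY, the only measured gene of its list, went the other way (6.37, 8.15, 9.06 and 8.79), as did the phloem-expressed sucrose transporter SWEET11 (10.58, 11.98, 11.56 and 11.44). Of the guard cell lineage genes, FMA, SPCH and MUTE were measured of 8 listed. All 3 passed as lower in untreated des1 (median difference -0.34), where 22.6% of all probe sets were called lower. None passed in the treated groups. MUTE was dim, with group means from 3.46 to 4.05, against lower quartiles of 3.69 to 3.90 over the arrays. SPCH was as dim in untreated des1, at 3.80. With so few genes, nothing is read from these marker counts. Epidermis and floral genes had no probe set paired with them here. The part of these markers in the members' pattern was not tested.

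The rule was also applied anew with 1 replicate number left out in all 4 groups. The probe sets so chosen were then read on the arrays left out. These lists are not the members, for which every array entered the choice and no array was held out. They are no separate set either. With replicate 1, 2 or 3 left out, 219, 217 and 213 of the probe sets chosen were members. With replicate 1 left out, 253 probe sets met the rule, and on the 4 arrays left out 253 of them were highest in untreated wild type and 196 (77.5%) had a gap of at least 1, against 24.8% and 1.94% of all probe sets. With replicate 2 left out the counts were 256 chosen, 256 highest and 186 (72.7%) with that gap, against 29.7% and 1.95% of all probe sets. With replicate 3 left out they were 236, 236 and 194 (82.2%), against 25.9% and 2.21%. The whole rule, with its limit of 0.5 on the 3 other groups, was met on the left-out arrays by 58.1%, 57.8% and 66.5% of those chosen, against 1.01%, 1.00% and 1.16% of all probe sets. The median gap was 1.40, 1.28 and 1.40 on the left-out arrays, where it had been 1.40, 1.37 and 1.43 on the arrays used. Each left-out set holds 1 array a group and may share its normalization with the rest, so no test goes with these counts. They describe the rule on these lists, and nothing is read from them for the members.

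All 249 members were called lower than untreated wild type by limma (adjusted p under 0.05 over all probe sets) in each of the 3 other groups, against the shares of 22.6%, 15.4% and 16.1% of all probe sets given above. All 249 were also called for the interaction, the genotype difference under Na2S minus that under water, for which 18.6% of all probe sets were called higher. Each of the 3 untreated wild type arrays lay above the 9 other arrays for all 249, as it did for 11.5% of all probe sets. The smallest such distance was 0.18, for AT1G44780. The choice of members fixes these counts, and the 3 comparisons share the untreated wild type arrays. Whatever is particular to those 3 arrays besides genotype and watering cannot be told apart from the group.

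The spread among replicate arrays was somewhat wider for members than for all probe sets in the group where they were high. The median SD of members was 0.155 in untreated wild type, against 0.122 over all probe sets. It was 0.131, 0.137 and 0.126 in des1 with water, wild type with Na2S and des1 with Na2S, against 0.125, 0.122 and 0.115 over all. Within untreated wild type the largest SD of a member was 0.544, for a probe set with no gene listed.

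Within the limit that the rule sets, the 3 low groups still differed for some members. Between treated des1 and treated wild type 0 of 249 members were called by limma (25 at an unadjusted p under 0.05), where 1.4% of all probe sets were called; with array weights 7 members were called, and leaving out wild type Na2S replicate 1 gave 1. Between treated and untreated des1 47 members (18.9%) were called, 26 higher and 21 lower with Na2S, where 37.1% of all probe sets were called. Between treated wild type and untreated des1 44 members (17.7%) were called, 21 higher and 23 lower in treated wild type, where 34.5% of all were called. With array weights these counts were 81 and 85, and the last was 29 without des1 water replicate 2. The rule bounds these differences at 0.5, so nothing is read from their shares.

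The values that follow are a description. AT2G43550 stood at 8.59 in treated and 8.10 in untreated des1. AT4G31050, an octanoyltransferase that attaches lipoic acid precursors in plastids, stood at 4.83 against 4.35, and AT1G25320, a leucine-rich repeat kinase, at 4.01 against 3.55. In treated wild type against untreated des1, ACA.l stood at 4.43 against 4.92, AT5G57410 at 4.75 against 4.27 and AT4G31050 at 4.83 against 4.35. In total 179 members had no call among the 3 low groups and 70 had at least 1. The highest of the 3 low means was that of untreated des1 for 99 members, of treated wild type for 75 and of treated des1 for 75. The lowest was that of untreated des1 for 105 members, of treated wild type for 78 and of treated des1 for 66.

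**Figure D3:**
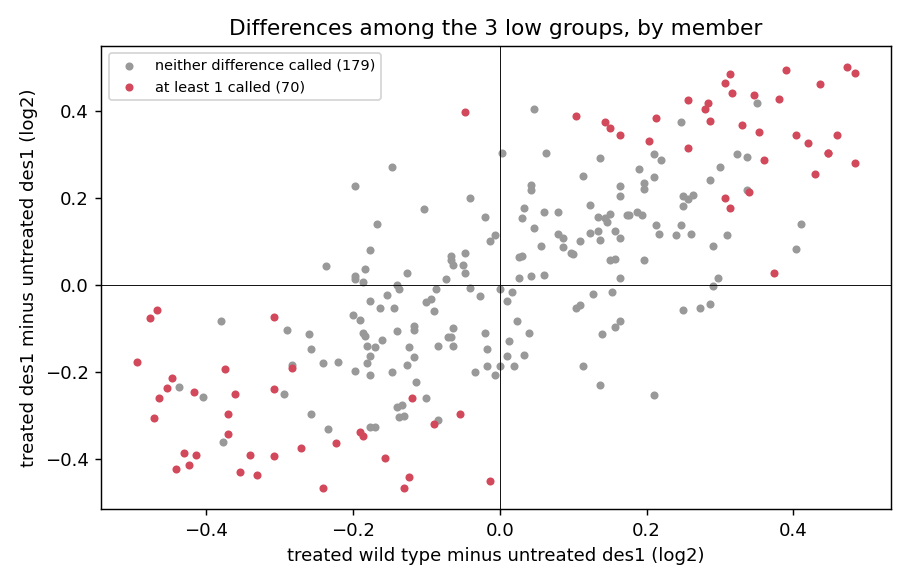
Differences among the 3 low groups for each of the 249 members, in log2 units: treated wild type minus untreated des1 on the horizontal axis and treated des1 minus untreated des1 on the vertical axis, both using the same untreated des1 arrays. The 70 members with at least 1 called difference are in red and the 179 others in grey, and all lie within 0.5 of zero on both axes.

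Values just inside and just outside the limits of the rule lay close together. AT1G25275 (gap 1.00), AT5G10780 (1.003) and AT5G20950 (1.007) lay just inside the limit on the gap, and a probe set with no gene listed (0.997), AT3G21770 (0.993) and AT3G19850 (0.993) just outside it. On the limit of 0.5 for the 3 low means, a probe set with no gene listed (0.50), AT2G43550 and ACA.l (0.493 each) lay inside, and TMT1 (0.503), AT3G47380 (0.507) and an unnamed probe set (0.51) outside. In all 442 probe sets had a gap of at least 1, and 193 of them missed the rule only because the 3 low means spread too far. Untreated des1 was the lowest group for 122 of these 193, treated wild type for 40 and treated des1 for 31. The highest of the 3 low means was that of untreated des1 for 65, of treated wild type for 44 and of treated des1 for 84. PORB, an enzyme of chlorophyll synthesis, is one of the 193, with a gap of 4.87 and low means spread by 1.53. AT4G30650, from the same family as AT4G30660, is another (gap 3.55, spread 0.98).

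The same rule was turned to each group and direction. Besides the 249 members, 261 probe sets were low only in untreated wild type, 311 high only in untreated des1 and 188 low only in untreated des1. For treated wild type the counts were 7 high and 0 low, and for treated des1 0 and 0. The median gap was 1.42 for members, 1.34 for probe sets low only in untreated wild type, 1.32 for those high only in untreated des1 and 1.21 for those low only there. The largest gap was 5.87 for members and 5.77, 5.15 and 3.39 for these 3 sets. The differences between these counts were not tested.

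**Figure D4:**
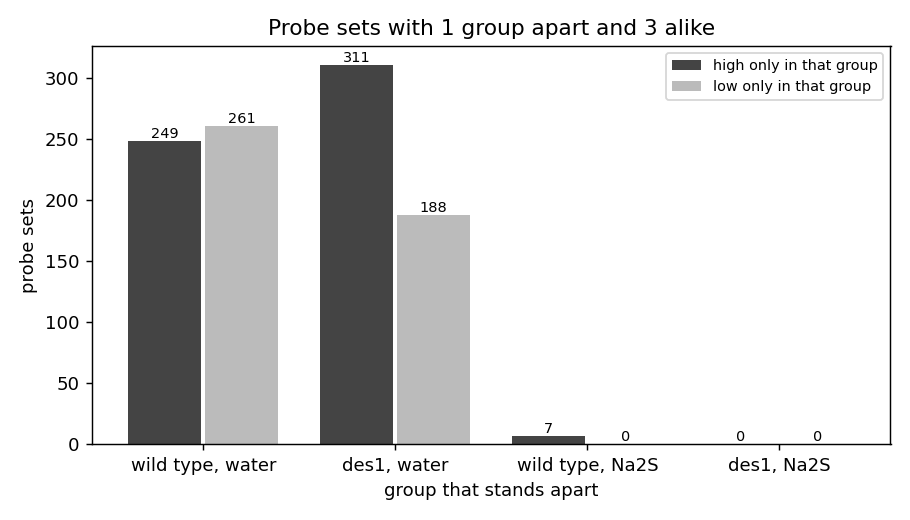
Number of probe sets, on the vertical axis, for which 1 group lies at least 1 log2 unit above (dark bars) or below (light bars) each other group while the other 3 lie within 0.5 of each other, for each of the 4 groups. The untreated groups have between 188 and 311 in each direction, and the treated groups at most 7.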

How the data were processed

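The deposited table holds log2 expression values per probe set, which the submitters' processing notes attribute to RMA and affy and which the authors made; versions and whether all 12 arrays were processed together are not given in the sources used here. RMA corrects background, equalizes array distributions and compresses differences of dim transcripts. No rescaling was applied. The median of an array was 5.71 to 5.80 and the lower quartile 3.69 to 3.90; arrays have no read depth, and their number limits the precision. No 2 arrays held identical values.

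Of 22810 probe sets, 64 controls were left out. Of the 22746 others, 13513 were paired with 1 gene, 503 with several and 8730 with none in GEO's platform annotation; 13508 were matched to a locus of assembly TAIR10.1, used for names and gene order. Groups and replicate numbers come from the titles, and the series' design calls the replicates biological. The members, gene lists and tests were chosen with earlier results of these data known. The limma model (3.58.1, R 4.3.3) had a mean for each group over the 12 arrays, with Benjamini-Hochberg adjustment over all 22746 and a threshold of 0.05. The fit and the rule were tested on simulated data. Named genes were the 25 members of 1 gene with the largest gaps, list members, those at the limits and the 3 largest called differences among the low groups; others are marked as chosen after their values were seen. Promoter motifs, planned for these members, were not analysed here.

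Same-numbered arrays of different groups did not deviate together (correlations of deviations from group means -0.215 to 0.162, with 1 of 18 above 0.1), so the numbers were not taken as pairs.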

Additional observations from a re-analysis of the deposited data

Results flagged for a closer look

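The genotype difference changed with the watering for all 249 members by the limma interaction test. The choice of members fixes this result, so it is no independent finding.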

How the results depend on the processing

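The number of members was 249, and 241 after quantile normalization again (230 of them shared), 228 after centring arrays on their medians (225 shared) and 250 with group medians (224 shared). It moved with the limits of the rule: 435 with a gap of at least 0.75, 106 with at least 1.5, 123 with the other means within 0.25 and 320 within 0.75. Probe sets of 1 gene numbered 123, and 207 members remained without dim probe sets. Leaving out 1 array gave 239 to 259 members, at least 232 of them shared.

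Calls of members between treated des1 and treated wild type, 0 in the report, were 1 after either rescaling, 1 without dim probe sets and 7 with array weights. Calls between treated and untreated des1 (47) and between treated wild type and untreated des1 (44) were 81 and 85 with array weights, and 0 and 0 with a 2-fold minimum, which the rule makes impossible. With 1 array left out these 3 counts ran from 0 to 1, from 32 to 56 and from 29 to 60. With a replicate block they were 0, 42 and 42, and the block changed no call against untreated wild type. The calls against untreated wild type held for every member tested under each alternative. The choice of members with a gap of at least 1 all but fixes this, so nothing is read from it. The interaction was called for 240 members with the 2-fold minimum. The cause of the changes with array weights was not tested.

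Of 350 gaps of the named genes recomputed under rescaling or with 1 array left out, 348 moved by less than the replicate SD and 2 by more. The lowest was 1.96 and 0 turned in direction. These genes were chosen for the largest gaps, with each untreated wild type array at least 1.46 above the arrays of the other groups. Leaving out 1 array could therefore turn no gap. It also moves a group mean by only a part of that array's deviation, so nothing is read from these counts. The promoter alternatives were not run. Where the low means lie below the lower quartile, as for all 3 of AT1G56300, AT2G39920 and PYK10, dim signal limits the size of the gap.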
